A study of Arabidopsis thaliana with 15 samples.

Results

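Transcripts of 57 nuclear genes that build the photosynthetic apparatus were examined in seedlings of Arabidopsis thaliana. The genes were taken as a list of loci, and all 57 were found among the 32548 genes of the deposited table. They comprise 14 genes of the photosystem II antenna (LHCB), 6 genes of the photosystem I antenna (LHCA), 12 photosystem I subunits, 10 photosystem II subunits, 7 genes of electron transport and the ATP synthase, and 8 Calvin cycle genes. Of these, 56 passed the filter on low values, a mean of at least 1 normalised read in at least 1 group. LHCB1.5 (AT2G34420) was listed at 0 in all 15 libraries and was not tested.

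Photosynthesis in plants starts with antenna proteins, which bind chlorophyll and pass light energy to the reaction centres of photosystems II and I. Electrons taken from water run through the cytochrome b6f complex, plastocyanin and ferredoxin to NADP, and the resulting NADPH and ATP drive carbon fixation in the Calvin cycle. Reaction centre proteins are encoded in the chloroplast, while antenna proteins and many peripheral subunits are encoded in the nucleus, where light, chloroplast state and stress are known to set their transcript levels.

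RNA was sequenced from 15 seedling libraries of the Col-0 ecotype in 5 groups of 3, all 11 days old and grown on Murashige and Skoog plates at 22 °C with 16 h of light and 8 h of dark. The mutant wrky-qm carried homozygous mutations (wrky7-/-11-/-17-/-21-/-39-/-) in 5 genes of WRKY transcription factors. The mutant wrky-qm_15_hz carried the same 5 and was heterozygous for a mutation of a further WRKY gene (wrky15+/-). The mutant obe1-2 carried homozygous mutations (obe1-/- obe2-/-) in OBE1 and OBE2, which encode PHD-finger proteins. Both wild-type sets, Col-0_1 and Col-0_2, were Col-0, and no label says which set belongs to which mutant. The deposited values fall into 2 blocks by how zeros are stored: each Col-0_1 library holds 8177 and each wrky-qm library 7949 positive values below 1e-06, and the libraries of Col-0_2, obe1-2 and wrky-qm_15_hz hold 0 such values. The sources used here do not say whether these blocks were processed apart. The series title places WRKY factors and PHD proteins in a complex that represses stress genes. The labels do not say that libraries of a group came from separate cultures, so the tests capture only how these libraries vary, and that variation may be technical.

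The values, normalised reads in form, summed to between 44049333 and 49934976 per library. They are not scaled by gene length, so levels are compared between libraries and not between genes. OBE1 stood at 6.7 to 16.0 normalised reads in obe1-2, against 2011 to 2310 in Col-0_1 and 2432 to 2648 in Col-0_2. OBE2 stood at 1754 to 1897 in obe1-2, against 3723 to 3937 in Col-0_1 and 4197 to 4427 in Col-0_2. WRKY17 stood at 162 to 199 in wrky-qm and 357 to 470 in wrky-qm_15_hz, against 828 to 1129 over both wild-type sets, and WRKY39 was also below all wild-type libraries in both. WRKY21 was below all wild-type libraries in wrky-qm and overlapped them in wrky-qm_15_hz. WRKY7, WRKY11 and WRKY15 were above all wild-type libraries in both WRKY mutants. A mutated gene can still be transcribed, so these levels do not check every mutation.

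The photosynthesis genes were lower across the list in obe1-2 and wrky-qm_15_hz, and in wrky-qm their calls depended on the wild-type set. A call required the same direction against Col-0_1 and against Col-0_2 and a limma adjusted p under 0.05. Fold changes are differences in log2(value + 1) from the average of the wild-type sets, given ± SE. In obe1-2, 0 genes were called higher and 55 of 56 lower, with a median log2 fold change of -1.38. Among all 25085 genes tested, 29.2% were called higher and 32.5% lower in obe1-2, with a median of -0.079. In wrky-qm_15_hz, 0 were called higher and 51 lower with a median of -0.68, against 26.5% higher and 27.4% lower and a median of -0.038 among all genes. In wrky-qm, 7 were called higher and 9 lower with a median of 0.028, against 15.5% higher and 11.4% lower and a median of 0 among all genes. In whole seedlings, fewer photosynthetic cells and less RNA of these genes per cell cannot be told apart.

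The size of the fall followed the same order, both in the list and among all genes. In obe1-2, 43 of the 56 genes were at or below a fold change of 0.5 and 12 at or below 0.25, beside 23.3% and 12.6% of all genes. In wrky-qm_15_hz the counts were 11 and 1, beside 16.9% and 6.06% of all genes. The first is near the share of all genes and the second below it, so these bands do not set the list apart there. In wrky-qm the counts were 0 and 0, beside 5.29% and 1.1%. All 3 libraries lay below all 6 wild-type libraries for 55 genes in obe1-2 and 50 in wrky-qm_15_hz, where 33.0% and 28.3% of all genes did so. In wrky-qm, 9 genes lay below and 10 above all wild-type libraries, beside 16.0% and 19.6% of all genes.

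The 57 genes together held 14.2% to 14.5% of each library's total in wrky-qm, 7.87% to 8.20% in wrky-qm_15_hz and 4.47% to 4.69% in obe1-2, against 14.5% to 15.2% in Col-0_1 and 13.9% to 14.2% in Col-0_2. The LHCB genes alone held 6.15% to 6.35% in wrky-qm, 3.15% to 3.20% in wrky-qm_15_hz and 1.48% to 1.55% in obe1-2, against 5.70% to 5.88% in Col-0_1 and 5.67% to 5.84% in Col-0_2. For every role group the libraries of obe1-2 lay lowest, those of wrky-qm_15_hz next, and neither overlapped the wild-type sets. In wrky-qm the antenna shares lay above both wild-type sets, and the shares of photosystem I, photosystem II, electron transport and the Calvin cycle lay below both.

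**Figure D1:**
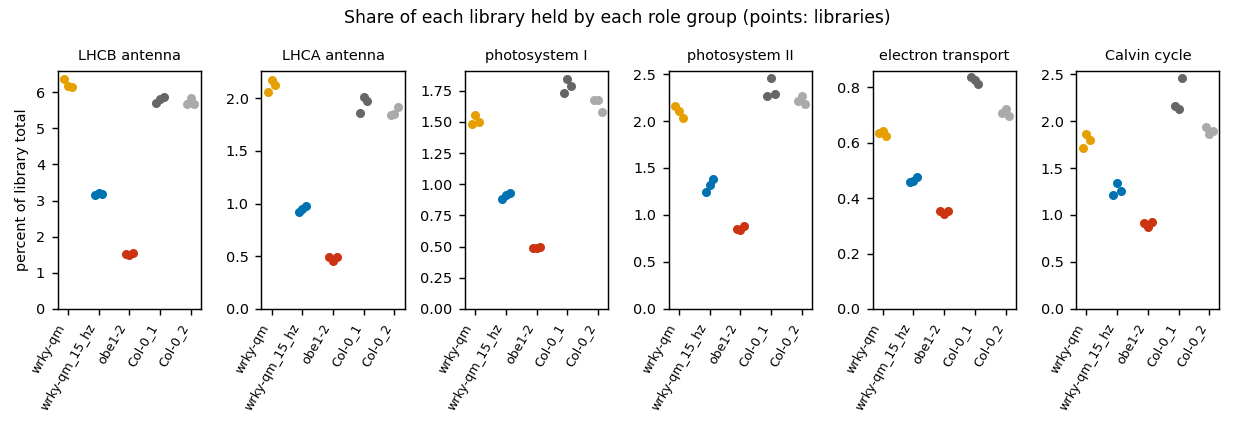
Share of each library's total held by the genes of 6 role groups, in percent, with 1 point per library and a separate axis from 0 for each role. The obe1-2 libraries are lowest in every panel, at 1.48% to 1.55% for the LHCB genes, and the wrky-qm_15_hz libraries lie between them and the wild-type sets.

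The LHCB genes encode the chlorophyll a/b proteins of photosystem II, with LHCB1, LHCB2 and LHCB3 forming the main trimers and LHCB4, LHCB5 and LHCB6 the minor antenna next to the core. Of 13 tested, all were called lower in obe1-2 (median log2 fold change -1.97), 12 were called lower in wrky-qm_15_hz (median -0.93), and 3 were called higher and 0 lower in wrky-qm (median 0.080). The largest fall was that of LHCB2.3 (AT3G27690), an LHCB2 protein of the trimers. It had 41596, 41460 and 42068 in wrky-qm, 8820, 8845 and 9371 in wrky-qm_15_hz, and 1862, 1648 and 1809 in obe1-2, against 40473, 41633 and 41983 in Col-0_1 and 37973, 37788 and 37418 in Col-0_2 normalised reads. The libraries of obe1-2 were lowest and those of wrky-qm_15_hz next, with no overlap between either and any other group, while wrky-qm overlapped Col-0_1. The log2 fold change of LHCB2.3 was -4.48 ± 0.036 in obe1-2 (limma adjusted p = 1.66e-25) and -2.13 ± 0.036 in wrky-qm_15_hz (limma adjusted p = 5.57e-20). In wrky-qm it was 0.078 ± 0.036 (limma adjusted p = 1).

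LHCB1.3 (AT1G29930), an LHCB1 gene and the highest of the LHCB genes by wild-type value, had 884545, 830378 and 842900 in wrky-qm, 593952, 609638 and 613237 in wrky-qm_15_hz, and 290208, 275034 and 290659 in obe1-2, against 679680, 673632 and 696836 in Col-0_1 and 779261, 795986 and 756253 in Col-0_2 normalised reads. The order was obe1-2 lowest, then wrky-qm_15_hz, then the wild-type sets, with wrky-qm above every other library. Its fall was -1.35 ± 0.055 in obe1-2 (limma adjusted p = 1.39e-13) and -0.27 ± 0.055 in wrky-qm_15_hz (limma adjusted p = 0.0243). The call in wrky-qm_15_hz was lost without wrky-qm_15_hz replicate 1 (limma adjusted p = 0.0575) or Col-0_1 replicate 3 (0.0716). LHCB1.3 held the highest value of all genes in 12 of the 15 libraries, all but those of obe1-2, so quantile normalisation, which gives all libraries one distribution of values, sets it equal in those 12 and cannot show a difference among them. In obe1-2 that setting gave -0.83. In wrky-qm the difference of 0.23 ± 0.055 did not pass (limma adjusted p = 0.145). LHCB1.3 and LHCB1.1 (AT1G29920) and LHCB1.2 (AT1G29910) are neighbours on chromosome 1 and close copies that may share reads. In obe1-2 the fold changes of LHCB1.1 and LHCB1.2 were -2.25 ± 0.046 and -2.23 ± 0.047.

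LHCB1.4 (AT2G34430) was the antenna gene with the largest rise in wrky-qm. It had 228859, 235433 and 230225 in wrky-qm, 105417, 108502 and 106487 in wrky-qm_15_hz, and 47681, 45487 and 46304 in obe1-2, against 122812, 124415 and 125836 in Col-0_1 and 188193, 188209 and 178803 in Col-0_2 normalised reads. Every wrky-qm library was above every wild-type library, and the wild-type sets did not overlap each other. The log2 fold change was 0.61 ± 0.038 in wrky-qm (limma adjusted p = 4.8e-06), -0.51 ± 0.038 in wrky-qm_15_hz and -1.71 ± 0.038 in obe1-2 (largest limma adjusted p of the last pair = 0.000204). LHCB1.4 differed between the wild-type sets by 0.57 ± 0.044 (Col-0_2 over Col-0_1, limma adjusted p = 2.87e-09). LHCB1.5, which was not tested, is its neighbour on chromosome 2 and a close copy, so LHCB1.4 may also hold reads of LHCB1.5. LHCB2.1 (AT2G05100), a trimer protein, and LHCB4.2 (AT3G08940), a minor antenna protein, were the other called rises in wrky-qm, at 0.23 ± 0.040 and 0.29 ± 0.042. The LHCB2.1 call was lost when any of 3 libraries was left out: wrky-qm replicate 1 (limma adjusted p = 0.0623), wrky-qm replicate 3 (0.0944) and Col-0_1 replicate 3 (0.152).

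Among the remaining LHCB genes, fold changes in obe1-2 lay between -2.62 for LHCB2.2, a trimer protein, and -1.16 for LHCB4.3 (AT2G40100), a variant of the minor antenna. LHCB4.3 was the LHCB gene not called in wrky-qm_15_hz (-0.28 ± 0.10, limma adjusted p = 1). It had 539, 538 and 523 in wrky-qm_15_hz normalised reads, against 747, 872 and 852 in Col-0_1 and 495, 558 and 475 in Col-0_2, so its wrky-qm_15_hz libraries overlapped Col-0_2 and lay below Col-0_1.

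**Figure D2:**
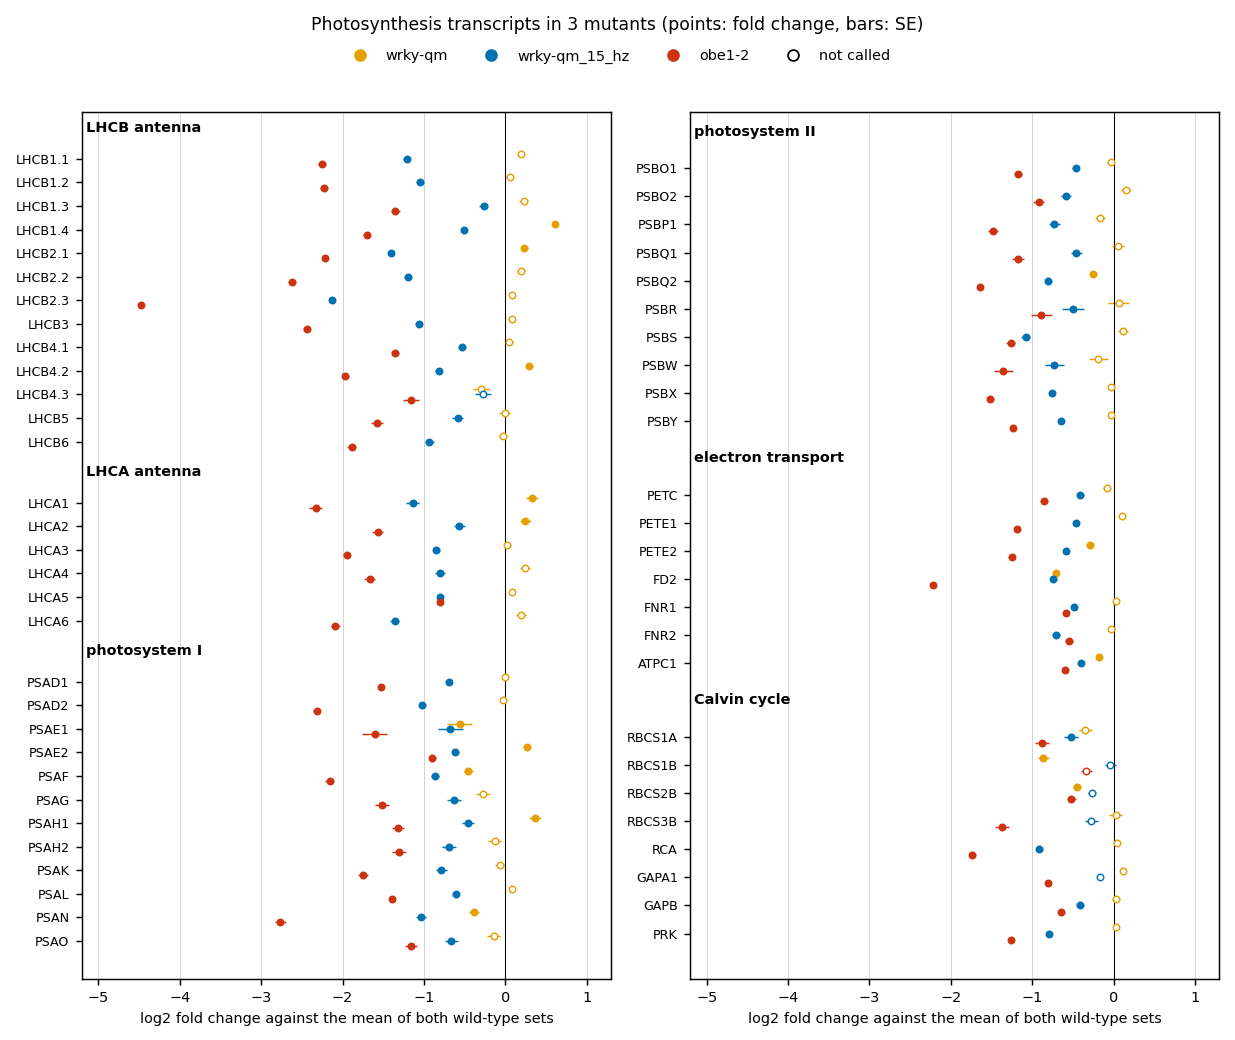
Log2 fold changes of the 56 genes tested, by role, relative to the average of Col-0_1 and Col-0_2, with bars of 1 SE and open points where the call did not pass. Points of obe1-2 and wrky-qm_15_hz lie left of 0 for every gene, with LHCB2.3 in obe1-2 furthest left at -4.48, and points of wrky-qm lie on both sides.

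The LHCA genes encode the antenna of photosystem I, and LHCA5 and LHCA6 the low-abundance antenna proteins that link photosystem I to the NADH dehydrogenase-like complex. All 6 were called lower in obe1-2 (median -1.81) and in wrky-qm_15_hz (median -0.83), and LHCA1 and LHCA2 were called higher in wrky-qm. LHCA1 (AT3G54890) had 257395, 267599 and 258515 in wrky-qm, 94164, 87198 and 103000 in wrky-qm_15_hz, and 44554, 35720 and 44582 in obe1-2, against 180330, 201576 and 237306 in Col-0_1 and 202724, 213191 and 219059 in Col-0_2 normalised reads. Its wrky-qm libraries lay above and its other mutant libraries below all wild-type libraries. LHCA1 had a log2 fold change of 0.33 ± 0.077 in wrky-qm (limma adjusted p = 0.0124), -1.14 ± 0.077 in wrky-qm_15_hz (limma adjusted p = 5.62e-10) and -2.33 ± 0.077 in obe1-2 (limma adjusted p = 1.35e-15). The call in wrky-qm was lost without wrky-qm replicate 2 (limma adjusted p = 0.0511) or Col-0_2 replicate 1 (0.0595). The call of LHCA2 in wrky-qm, at 0.25 ± 0.069, was lost when any of 6 libraries was left out, with limma adjusted p-values up to 0.237.

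LHCA6 (AT1G19150) had 5130, 5060 and 4678 in wrky-qm, 1664, 1611 and 1788 in wrky-qm_15_hz, and 1083, 1075 and 900 in obe1-2, against 5251, 5559 and 5595 in Col-0_1 and 3645, 3321 and 3347 in Col-0_2 normalised reads. It was lower in obe1-2 and wrky-qm_15_hz than in every wild-type library, and in wrky-qm it lay between the wild-type sets, which did not overlap. Its fall was -1.36 ± 0.056 in wrky-qm_15_hz (limma adjusted p = 1.19e-11) and -2.09 ± 0.056 in obe1-2 (limma adjusted p = 6.23e-16). LHCA4 (AT3G47470), the highest of the LHCA genes by wild-type value, had 304616, 324819 and 310459 in wrky-qm, 147240, 148540 and 159808 in wrky-qm_15_hz, and 84924, 80945 and 84506 in obe1-2, against 277867, 303937 and 265243 in Col-0_1 and 248085, 220285 and 285256 in Col-0_2 normalised reads. Its libraries were lowest in obe1-2 and next lowest in wrky-qm_15_hz, with fold changes of -1.67 ± 0.064 and -0.81 ± 0.064 (largest limma adjusted p = 3.66e-08). Quantile normalisation gave -0.48 for LHCA4 in wrky-qm_15_hz. LHCA5 (AT1G45474) had log2 fold changes of -0.80 ± 0.035 in obe1-2 and -0.80 ± 0.035 in wrky-qm_15_hz, both called lower.

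Photosystem I subunits followed, with 12 of 12 called lower in obe1-2 (median -1.52) and in wrky-qm_15_hz (median -0.68), and 2 called higher and 3 lower in wrky-qm. PSAN (AT5G64040), a lumenal subunit on the plastocyanin side, fell most in both. It had 55776, 53721 and 53369 in wrky-qm, 31770, 33519 and 38853 in wrky-qm_15_hz, and 10687, 10060 and 10677 in obe1-2, against 64225, 79990 and 74165 in Col-0_1 and 74942, 66356 and 68319 in Col-0_2 normalised reads. The 3 mutants were separated from the wild-type sets and from each other, with obe1-2 lowest and wrky-qm nearest to wild type. PSAN had a log2 fold change of -0.39 ± 0.062 in wrky-qm (limma adjusted p = 0.000444), -1.04 ± 0.062 in wrky-qm_15_hz (limma adjusted p = 8.77e-11) and -2.76 ± 0.062 in obe1-2 (limma adjusted p = 1.93e-18).

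PSAF (AT1G31330), which helps dock plastocyanin, was the highest photosystem I gene by wild-type value and had 98460, 120015 and 118411 in wrky-qm, 83635, 85837 and 83331 in wrky-qm_15_hz, and 35254, 33765 and 33803 in obe1-2, against 160328, 161247 and 161408 in Col-0_1 and 147541, 149101 and 141049 in Col-0_2 normalised reads. All 9 mutant libraries were below all wild-type libraries. Its fold change was -0.45 ± 0.051 in wrky-qm (limma adjusted p = 2.26e-05), -0.86 ± 0.051 in wrky-qm_15_hz (limma adjusted p = 1.73e-10) and -2.16 ± 0.051 in obe1-2 (limma adjusted p = 5.85e-18).

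PSAE1 (AT4G28750) and PSAE2 (AT2G20260) encode alternative forms of the stromal subunit that helps dock ferredoxin. PSAE1 had 10806, 11333 and 10250 in wrky-qm, 9857, 9788 and 10174 in wrky-qm_15_hz, and 5943, 5529 and 4326 in obe1-2, against 11534, 21348 and 19274 in Col-0_1 and 19171, 15952 and 11116 in Col-0_2 normalised reads. The wild-type libraries spread widely, with a coefficient of variation of 29.7% in Col-0_1, and 1 library of wrky-qm overlapped them. The fall in wrky-qm was -0.56 ± 0.15 (limma adjusted p = 0.049) and the call was lost when any of 7 libraries was left out, with limma adjusted p-values up to 0.308 (without Col-0_2 replicate 1). It was also lost with a pseudocount of 0.5 (limma adjusted p = 0.0559) and with every gene above 0 kept (0.0716). PSAE1 was also called lower in wrky-qm_15_hz (-0.68 ± 0.15), and this call was lost without Col-0_2 replicate 1 (limma adjusted p = 0.0639). PSAE2 had 26654, 26413 and 27343 in wrky-qm, 12943, 14916 and 15878 in wrky-qm_15_hz, and 11651, 11781 and 12399 in obe1-2, against 22145, 23640 and 23906 in Col-0_1 and 21249, 21854 and 20762 in Col-0_2 normalised reads, highest in wrky-qm and below all wild-type libraries in the other mutants. The fold change was 0.27 ± 0.048 in wrky-qm (limma adjusted p = 0.00617), -0.61 ± 0.048 in wrky-qm_15_hz and -0.90 ± 0.048 in obe1-2 (largest limma adjusted p of the last pair = 2.08e-08).

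PSAH1 (AT3G16140), a subunit where the LHCII trimers dock, was the other photosystem I gene called higher in wrky-qm. It had 19645, 20592 and 21456 in wrky-qm, 10516, 11924 and 12307 in wrky-qm_15_hz, and 5773, 6474 and 6951 in obe1-2, against 17386, 13504 and 17225 in Col-0_1 and 16646, 16642 and 14464 in Col-0_2 normalised reads. The wrky-qm libraries lay above all wild-type libraries, and the rise was 0.37 ± 0.073 (limma adjusted p = 0.00191). PSAH1 was called lower in wrky-qm_15_hz, at -0.46 ± 0.073, and stood at -0.76 there under quantile normalisation. PSAH1 and PSAH2 (AT1G52230) encode close copies that may share reads, and PSAH2 did not pass in wrky-qm (-0.13 ± 0.083, limma adjusted p = 1). The other photosystem I genes in obe1-2 ran from -2.32 for PSAD2, which carries the ferredoxin docking site, to -1.16 for PSAO, a subunit near the LHCII docking site.

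**Figure D3:**
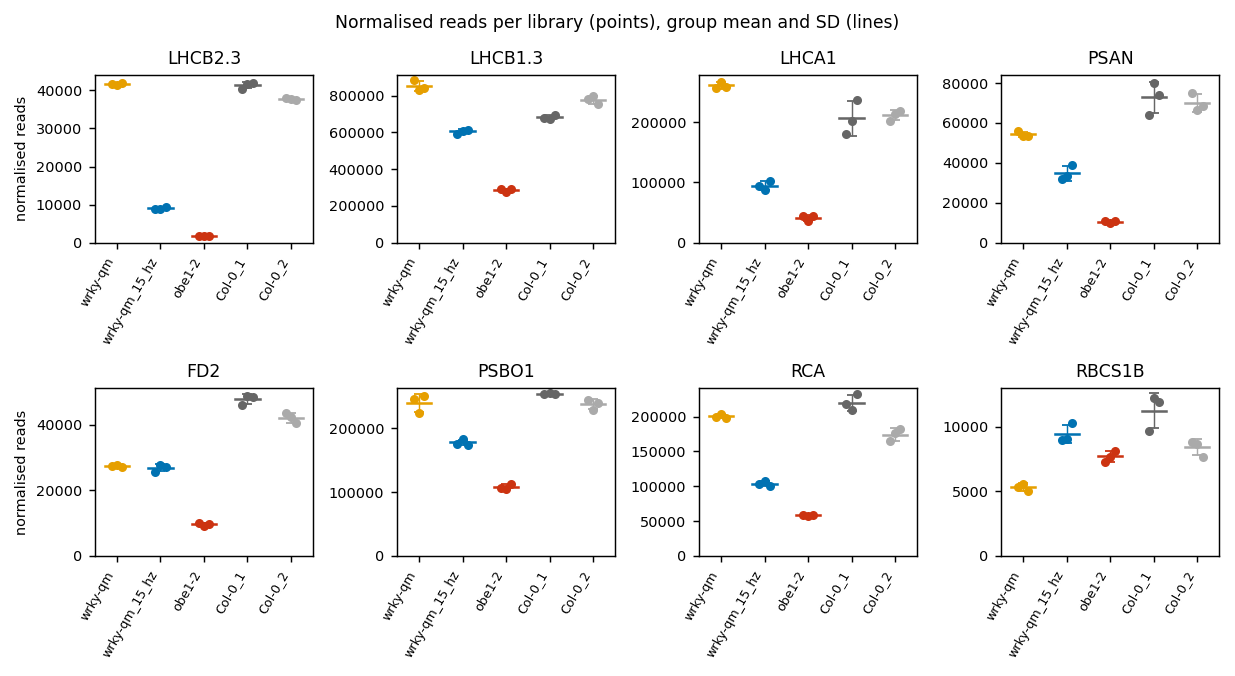
Normalised reads of 8 genes in each library (points) with the group mean and SD (lines), on axes that start at 0. LHCB2.3 is near the base of the axis in obe1-2, FD2 is lowest in obe1-2 with overlapping points in wrky-qm and wrky-qm_15_hz, and RBCS1B is lowest in wrky-qm.

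Photosystem II subunits were called lower in 10 of 10 cases in both obe1-2 (median -1.25) and wrky-qm_15_hz (median -0.69). In wrky-qm 1 was called lower and 0 higher. PSBQ2 (AT4G05180), an extrinsic subunit of the oxygen-evolving complex, had 83454, 82874 and 87095 in wrky-qm, 58443, 56069 and 58283 in wrky-qm_15_hz, and 32465, 31892 and 32011 in obe1-2, against 96642, 98388 and 91451 in Col-0_1 and 99255, 111521 and 105790 in Col-0_2 normalised reads. All mutant libraries lay below all wild-type libraries, lowest in obe1-2. PSBQ2 had a log2 fold change of -0.25 ± 0.040 in wrky-qm (limma adjusted p = 0.00601), -0.80 ± 0.040 in wrky-qm_15_hz (limma adjusted p = 1.64e-11) and -1.64 ± 0.040 in obe1-2 (limma adjusted p = 1.65e-17). The PSBQ2 call in wrky-qm was lost under quantile normalisation (-0.11, limma adjusted p = 0.659).

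PSBS (AT1G44575), the sensor of lumen acidity needed for rapid heat dissipation, had 47843, 46907 and 38654 in wrky-qm, 20518, 17959 and 19522 in wrky-qm_15_hz, and 17018, 16277 and 17689 in obe1-2, against 48959, 44550 and 49760 in Col-0_1 and 35181, 35541 and 34068 in Col-0_2 normalised reads. It was below all wild-type libraries in obe1-2 and wrky-qm_15_hz, and in wrky-qm it lay above Col-0_2 and overlapped Col-0_1. The fall was -1.08 ± 0.057 in wrky-qm_15_hz (limma adjusted p = 3.84e-10) and -1.26 ± 0.057 in obe1-2 (limma adjusted p = 8.36e-12). PSBO1 (AT5G66570), the subunit that stabilises the manganese cluster, was highest by wild-type value and had 244757, 223526 and 249883 in wrky-qm, 175566, 182637 and 174199 in wrky-qm_15_hz, and 106507, 105438 and 113242 in obe1-2, against 252891, 255324 and 252689 in Col-0_1 and 244258, 228618 and 238628 in Col-0_2 normalised reads. Its fold changes were -1.18 ± 0.047 in obe1-2 and -0.47 ± 0.047 in wrky-qm_15_hz (largest limma adjusted p = 1.05e-06). The PSBO1 call in wrky-qm_15_hz was lost under quantile normalisation (-0.13, limma adjusted p = 0.717). The remaining subunits in obe1-2 ranged from -1.51 for PSBX, a small membrane subunit, to -0.89 for PSBR, a peripheral subunit with a coefficient of variation of 23.0% in wrky-qm and 24.1% in wrky-qm_15_hz.

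Electron transport genes were called lower in 7 of 7 cases in obe1-2 (median -0.86) and in wrky-qm_15_hz (median -0.49), and in wrky-qm 3 were called lower and 0 higher. FD2 (AT1G60950), the main leaf ferredoxin, had 27428, 27815 and 27101 in wrky-qm, 25731, 27695 and 27295 in wrky-qm_15_hz, and 10195, 9092 and 9698 in obe1-2, against 46210, 48766 and 48677 in Col-0_1 and 43604, 42405 and 40478 in Col-0_2 normalised reads. The libraries of wrky-qm and wrky-qm_15_hz overlapped, those of obe1-2 were far below, and all lay below the wild-type sets. The log2 fold change was -0.71 ± 0.039 in wrky-qm (limma adjusted p = 3.96e-10), -0.74 ± 0.039 in wrky-qm_15_hz (limma adjusted p = 6.69e-11) and -2.22 ± 0.039 in obe1-2 (limma adjusted p = 5.41e-20).

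PETE2 (AT1G20340), the main plastocyanin, had 91576, 94881 and 91346 in wrky-qm, 73454, 74800 and 79039 in wrky-qm_15_hz, and 47686, 45459 and 50013 in obe1-2, against 126921, 124963 and 120779 in Col-0_1 and 102892, 107669 and 100823 in Col-0_2 normalised reads, with no overlap between any mutant and wild type. The fall was -0.29 ± 0.041 in wrky-qm (limma adjusted p = 0.0114), -0.58 ± 0.041 in wrky-qm_15_hz and -1.25 ± 0.041 in obe1-2 (largest limma adjusted p of the last pair = 4.12e-08). In wrky-qm the call was lost without Col-0_2 replicate 2 (limma adjusted p = 0.0655) and under quantile normalisation (-0.21, limma adjusted p = 0.299). ATPC1 (AT4G04640), the gamma subunit of the chloroplast ATP synthase, was called lower in every mutant, at -0.60 ± 0.034 in obe1-2, -0.39 ± 0.034 in wrky-qm_15_hz and -0.18 ± 0.034 in wrky-qm. The genes of ferredoxin-NADP reductase fell least in obe1-2, -0.59 ± 0.037 for FNR1 and -0.55 ± 0.045 for FNR2.

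The Calvin cycle genes had the smallest median falls of the 6 role groups in obe1-2 and wrky-qm_15_hz. In obe1-2, 7 of 8 were called lower (median -0.84), in wrky-qm_15_hz 4 (median -0.34) and in wrky-qm 2. The 4 not called in wrky-qm_15_hz were RBCS1B, RBCS2B, RBCS3B and GAPA1, the last a subunit of the glyceraldehyde-3-phosphate dehydrogenase of the cycle. RCA (AT2G39730), which encodes Rubisco activase, had 199249, 204301 and 198465 in wrky-qm, 103009, 108008 and 100811 in wrky-qm_15_hz, and 59305, 57839 and 59294 in obe1-2, against 218192, 209676 and 232563 in Col-0_1 and 164811, 176196 and 181813 in Col-0_2 normalised reads. Its values were lowest in obe1-2 and next in wrky-qm_15_hz, while wrky-qm lay between the wild-type sets. The fold change was -1.73 ± 0.045 in obe1-2 (limma adjusted p = 1.04e-16) and -0.91 ± 0.045 in wrky-qm_15_hz (limma adjusted p = 6.48e-11).

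RBCS1B (AT5G38430), a small subunit of Rubisco, had 5379, 5597 and 5037 in wrky-qm, 8973, 9091 and 10295 in wrky-qm_15_hz, and 7260, 7700 and 8169 in obe1-2, against 9688, 12228 and 11898 in Col-0_1 and 8842, 8700 and 7695 in Col-0_2 normalised reads. It was lowest in wrky-qm, below all other libraries, and in wrky-qm_15_hz and obe1-2 it overlapped the wild-type sets. The log2 fold change was -0.86 ± 0.065 in wrky-qm (limma adjusted p = 4.93e-07), -0.040 ± 0.065 in wrky-qm_15_hz (limma adjusted p = 1) and -0.33 ± 0.065 in obe1-2 (limma adjusted p = 0.168). Under quantile normalisation RBCS1B passed in obe1-2 as well (-0.61, limma adjusted p = 2.66e-05). RBCS2B (AT5G38420), its neighbour on chromosome 5 and a close copy that may share reads, was called lower in wrky-qm (-0.45 ± 0.051) and in obe1-2 (-0.52 ± 0.051).

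RBCS1A (AT1G67090), the highest Calvin cycle gene by wild-type value, had 311106, 393016 and 332727 in wrky-qm, 280950, 337886 and 296613 in wrky-qm_15_hz, and 245158, 223948 and 244296 in obe1-2, against 430456, 421593 and 547589 in Col-0_1 and 425649, 393610 and 418084 in Col-0_2 normalised reads. The fold change was -0.35 ± 0.084 in wrky-qm, which did not pass (limma adjusted p = 0.0524), -0.52 ± 0.084 in wrky-qm_15_hz (limma adjusted p = 0.000591) and -0.88 ± 0.084 in obe1-2 (limma adjusted p = 2.84e-07). In wrky-qm it passed without wrky-qm replicate 2 (limma adjusted p = 0.0131) or Col-0_1 replicate 3 (0.0243). It also passed there with a minimum group mean of 50 (limma adjusted p = 0.0324) and with only the compared libraries in the fit (0.0264). Quantile normalisation gave -0.56 for RBCS1A in obe1-2. Its libraries lay below all wild-type libraries in every mutant.

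The mutants were also compared directly. Between wrky-qm_15_hz and wrky-qm this comparison runs across the blocks of zero storage, and between obe1-2 and wrky-qm_15_hz it stays within one. Between wrky-qm_15_hz and wrky-qm, 2 genes were called higher and 50 of 56 lower in wrky-qm_15_hz (median -0.63), where limma called 29.5% of all genes higher and 34.9% lower. LHCB2.3 had the largest difference, -2.21 ± 0.042 (limma adjusted p = 1.46e-20), followed by LHCB2.1 (-1.64 ± 0.046) and LHCA6 (-1.55 ± 0.065). The 2 genes called higher were RBCS1B (0.82 ± 0.076, limma adjusted p = 4.68e-09) and RBCS2B (0.19 ± 0.059, limma adjusted p = 0.00831). The RBCS2B call was lost without wrky-qm_15_hz replicate 2 (limma adjusted p = 0.0957). FD2, LHCB4.3, PSAE1 and RBCS1A did not pass, with FD2 at -0.029 ± 0.045 (limma adjusted p = 0.591). Under quantile normalisation FD2 (-0.33, limma adjusted p = 5.31e-07) and RBCS1A (-0.50, limma adjusted p = 4.26e-07) did pass, and PSBO1 did not, at 0.043. In a further contrast, chosen after the data were seen, each mutant was first set against the wild-type set of its own block (wrky-qm_15_hz less Col-0_2, minus wrky-qm less Col-0_1). There 3 genes were called higher and 41 lower (median -0.55), where 23.0% of all genes were called higher and 27.3% lower and the median of all genes was -0.077. LHCB2.3 stood at -2.08 and LHCA6 at -0.88 in it, the PETE2 call was lost (-0.031, limma adjusted p = 0.735), and the 3 higher were RBCS1B (1.24), RBCS2B (0.66) and LHCB4.3 (0.71).

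Between obe1-2 and wrky-qm_15_hz, 1 gene was called higher and 53 of 56 lower in obe1-2 (median -0.82), where 20.3% of all genes were called higher and 26.1% lower. The largest differences were those of LHCB2.3 (-2.35 ± 0.042), PSAN (-1.72 ± 0.072) and FD2 (-1.48 ± 0.045), with limma adjusted p of at most 3.4e-14. FNR2 was the 1 called higher (0.16 ± 0.052, limma adjusted p = 0.0156), and this call was lost without obe1-2 replicate 1 (0.0989), obe1-2 replicate 2 (0.0804) or wrky-qm_15_hz replicate 1 (0.0571). LHCA5 (0.0052 ± 0.040, limma adjusted p = 0.961) and FNR1 (-0.094 ± 0.042, limma adjusted p = 0.0759) did not pass. RBCS1A passed here, and not under quantile normalisation (-0.061, limma adjusted p = 0.46). Both comparisons share the wrky-qm_15_hz libraries. Of the direct calls, 50 of 52 between wrky-qm_15_hz and wrky-qm and 51 of 54 between obe1-2 and wrky-qm_15_hz were kept whichever 1 library was left out.

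**Figure D4:**
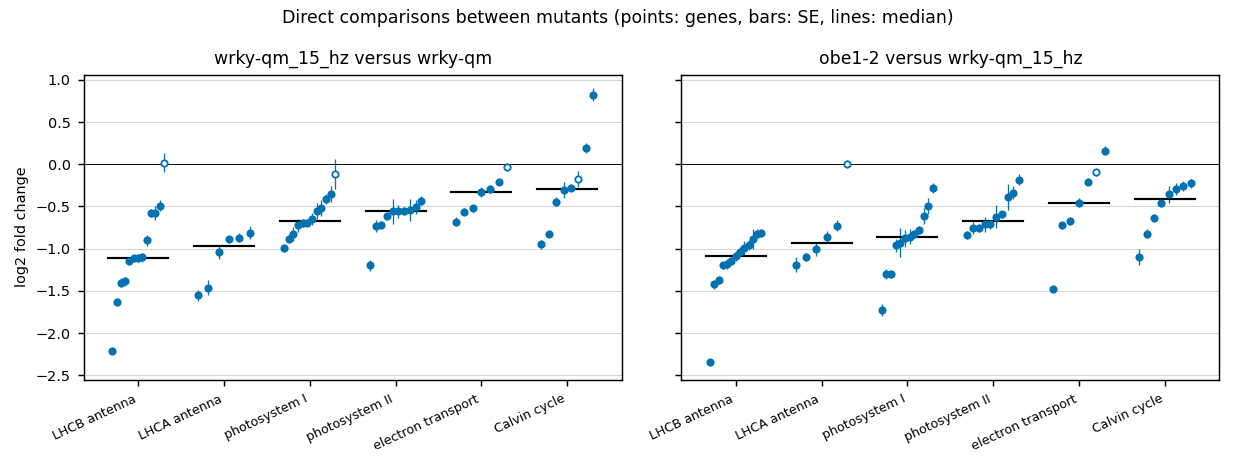
Log2 fold changes of the 56 genes between mutants, by role, with bars of 1 SE, lines at the median of each role and open points where the test did not pass. The medians run from -1.11 for LHCB to -0.29 for the Calvin cycle in the left panel and from -1.09 to -0.41 in the right panel.

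Paralogous genes that encode the same protein can fall unevenly, and ratios within 9 sets were set beside each other in 27 comparisons of a mutant with the 6 wild-type libraries. PSAD1 to PSAD2, alternative genes of one photosystem I subunit, stood at 3.90 to 4.1 in obe1-2 and 2.81 to 3.01 in wrky-qm_15_hz, against 2.19 to 2.34 in Col-0_1 and 2.29 to 2.41 in Col-0_2. In both mutants every library was above every wild-type library, with an exact two-sided permutation p of 0.0119, the smallest that 3 against 6 libraries can give. LHCB4.1 to LHCB4.2, genes of one minor antenna protein, stood at 2.88 to 2.91 in obe1-2, against 2.05 to 2.13 in Col-0_1 and 1.70 to 1.72 in Col-0_2. PETE1 to PETE2, the plastocyanin genes, stood at 0.098 to 0.105 in wrky-qm, against 0.076 to 0.082 in Col-0_1 and 0.073 to 0.075 in Col-0_2. Of the 27 comparisons, 11 had an unadjusted permutation p under 0.05, and 0 passed 0.05 after Benjamini-Hochberg adjustment (smallest adjusted permutation p = 0.0643). As 0.0119 is the smallest p possible, a single comparison among 27 could not pass on its own, however far its ratios lay from wild type. The count of 0 therefore does not show that the ratios were unchanged.

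The wild-type sets differed from each other in part of the list. In Col-0_2 relative to Col-0_1, 4 of 56 genes were called higher and 28 lower (median log2 fold change -0.18), where 13.7% of all genes were called higher and 9.52% lower. The largest differences downward were LHCB4.3 (-0.69 ± 0.11), LHCA6 (-0.67 ± 0.065) and PSBQ1 (-0.47 ± 0.084), a subunit of the oxygen-evolving complex, with limma adjusted p of at most 0.000235. The largest upward was LHCB1.4, given above. Of the 32 calls, 25 were kept whichever 1 library was left out. The median coefficient of variation of the 56 genes between libraries of a group was 3.49% to 4.31% over the 5 groups.

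The choice of wild-type set mattered for wrky-qm. Against Col-0_1 alone, the wild-type set of its own block, 9 of 56 genes were called higher and 20 lower in wrky-qm (median -0.10), where 22.0% of all genes were called higher and 18.4% lower. Against Col-0_2 alone 24 were called higher and 12 lower (median 0.099), where 22.7% and 19.4% of all genes were. Both sets together gave 7 and 9. In wrky-qm_15_hz, 0 were called higher and 51 lower against Col-0_2 alone, the set of its own block (29.9% and 31.3% of all genes), and 0 and 56 against Col-0_1 alone (31.6% and 33.9%). In obe1-2, 0 were called higher and 55 lower against Col-0_2 alone, also of its own block (32.2% and 36.1% of all genes), and 0 and 56 against Col-0_1 alone (33.2% and 37.6%). Of the calls against both sets, 11 of 16 in wrky-qm, 46 of 51 in wrky-qm_15_hz and 55 of 55 in obe1-2 were kept whichever 1 library was left out. Besides LHCB1.3 and PSAE1, the calls that were lost in wrky-qm_15_hz were those of PSBQ1, PSBR and GAPB, with limma adjusted p-values up to 0.176 (PSBQ1 without Col-0_2 replicate 2).

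Other nuclear genes of the pathway were taken as lists and counted in the same fit. Every count below, also of the markers, stands beside the shares of all genes tested. These were 26.5% higher and 27.4% lower in wrky-qm_15_hz, 29.2% and 32.5% in obe1-2, and 15.5% and 11.4% in wrky-qm. A count near these shares does not set a list apart. Further thylakoid subunits, 18 tested, were called lower in 16 cases in wrky-qm_15_hz and 16 in obe1-2 with 0 higher in either, and 1 was higher and 1 lower in wrky-qm. Their medians were -0.93 in obe1-2, -0.71 in wrky-qm_15_hz and 0.033 in wrky-qm. PSB27 (AT1G03600), a photosystem II assembly factor, stood at -1.51 ± 0.036 in obe1-2, and PGRL1A (AT4G22890), a component of cyclic electron flow, stood at -1.15 ± 0.036 in wrky-qm_15_hz and 0.42 ± 0.036 in wrky-qm. Further Calvin cycle enzymes were called higher in 3 and lower in 6 of 14 cases in wrky-qm_15_hz, 3 and 9 in obe1-2, and 1 and 4 in wrky-qm. FBA1 (AT2G21330), a fructose-bisphosphate aldolase, stood at -1.70 ± 0.033 in obe1-2, while CP12-3 (AT1G76560), a regulator of the cycle, rose in all 3, by 2.82 ± 0.10 in obe1-2, 2.21 ± 0.10 in wrky-qm_15_hz and 1.14 ± 0.10 in wrky-qm.

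Chlorophyll synthesis genes were called lower in 20 and higher in 2 of 24 cases in both wrky-qm_15_hz (median -0.47) and obe1-2 (median -0.86), and 8 and 2 in wrky-qm (median -0.096). HEMA1 (AT1G58290), which encodes the glutamyl-tRNA reductase that starts the pathway in green tissue, had a log2 fold change of -2.73 ± 0.030 in obe1-2 (limma adjusted p = 1.6e-23), and PORC (AT1G03630), a protochlorophyllide reductase, one of -1.09 ± 0.031 in wrky-qm_15_hz (limma adjusted p = 1.65e-15). HEMA2 (AT1G09940), another glutamyl-tRNA reductase gene, rose by 1.44 ± 0.050 in wrky-qm_15_hz and 1.05 ± 0.050 in wrky-qm and stood at 0.87 ± 0.050 in obe1-2 (limma adjusted p = 8.93e-11). Of 8 chlorophyll breakdown genes, 4 were called higher and 2 lower in each of wrky-qm_15_hz and obe1-2, and 1 higher and 3 lower in wrky-qm. NYE2 (AT4G11910), a gene of chlorophyll degradation, stood at 2.57 ± 0.15 in obe1-2, 1.75 ± 0.15 in wrky-qm_15_hz and -1.23 ± 0.15 in wrky-qm, each called. PAO (AT3G44880), the pheophorbide a oxygenase, rose by 0.58 ± 0.036 in wrky-qm_15_hz and 1.34 ± 0.036 in obe1-2.

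Among 20 regulators of photosynthesis genes, 13 were called lower and 3 higher in wrky-qm_15_hz, 12 and 3 in obe1-2, and 6 and 3 in wrky-qm. GLK1 (AT2G20570) and GLK2 (AT5G44190) encode transcription factors known to activate antenna and chlorophyll genes. GLK1 was called lower in all 3 mutants, at -1.17 ± 0.030 in obe1-2, -1.45 ± 0.030 in wrky-qm_15_hz and -0.61 ± 0.030 in wrky-qm. GLK2 was too, at -0.83 ± 0.042 in obe1-2, -1.68 ± 0.042 in wrky-qm_15_hz and -0.93 ± 0.042 in wrky-qm. PIF3 (AT1G09530), a phytochrome-interacting factor that restrains greening in the dark, rose by 1.76 ± 0.043 in obe1-2, 1.48 ± 0.043 in wrky-qm_15_hz and 1.1 ± 0.043 in wrky-qm (largest limma adjusted p = 5.07e-12). PIF4 (AT2G43010), a related factor, stood at -1.99 ± 0.037 in obe1-2, -1.35 ± 0.037 in wrky-qm_15_hz and 0.49 ± 0.037 in wrky-qm, each called. Of the 20 regulators, CCA1 (AT2G46830) differed most between the wild-type sets and was called lower in Col-0_2 than in Col-0_1. CCA1 was also called lower in wrky-qm_15_hz than in wrky-qm, and the cause of either difference was not tested.

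Import and assembly genes were called lower in 7 and higher in 1 of 11 cases in wrky-qm_15_hz, 8 and 0 in obe1-2, and 1 and 0 in wrky-qm. CPSRP54 (AT5G03940), which delivers antenna proteins to the thylakoid, stood at -0.71 ± 0.037 in wrky-qm_15_hz and -1.25 ± 0.037 in obe1-2, called lower in both. Photorespiration genes were called lower in 6 of 10 in wrky-qm_15_hz, 8 in obe1-2 and 0 in wrky-qm, where 3 were called higher, among them HPR1 (AT1G68010), the peroxisomal hydroxypyruvate reductase (0.48 ± 0.034 in wrky-qm, -1.41 ± 0.034 in obe1-2). Photoprotection genes were called lower in 7 of 11 in wrky-qm_15_hz and 8 in obe1-2, and 2 higher in wrky-qm, among them ABA1 (AT5G67030), the zeaxanthin epoxidase (0.46 ± 0.035 in wrky-qm, -1.63 ± 0.035 in wrky-qm_15_hz, -1.43 ± 0.035 in obe1-2).

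Markers of other cells in the seedling moved with the genotypes, and their part in the result was not tested. Summed over 11 root markers, the level was 2935 to 3094 normalised reads in wrky-qm, 1390 to 1446 in wrky-qm_15_hz and 2344 to 2681 in obe1-2, against 4767 to 4910 in Col-0_1 and 4665 to 5214 in Col-0_2. Of these, 0 were called higher and 5 lower in wrky-qm, 0 and 9 in wrky-qm_15_hz, and 1 and 9 in obe1-2. The median log2 fold change of the 11 was -4.07 in obe1-2, -1.97 in wrky-qm_15_hz and -0.61 in wrky-qm, so the sums and the medians order obe1-2 and wrky-qm_15_hz differently. In obe1-2 the root hair genes PRP3, COBL9, PRP1, EXPA7, RHD6 and RSL4 lay between -6.30 and -3.80, while CASP4, a gene of the endodermal barrier, was called higher at 1.88 ± 0.17 and CASP2 did not pass at 0.23 ± 0.13. Summed over 4 guard cell markers it was 1497 to 1617 in wrky-qm, 1095 to 1178 in wrky-qm_15_hz and 802 to 865 in obe1-2, against 2769 to 2866 in Col-0_1 and 3130 to 3365 in Col-0_2. All 4 were called lower in wrky-qm_15_hz and obe1-2, and 2 of the 4 in wrky-qm. Summed over 4 epidermis markers it was 44377 to 45089 in wrky-qm, 48783 to 50954 in wrky-qm_15_hz and 42109 to 43603 in obe1-2, against 35055 to 36513 in Col-0_1 and 40178 to 41284 in Col-0_2. Their members went both ways. In obe1-2, PDF1 (-3.79 ± 0.039) and ATML1 (-1.35 ± 0.036) were called lower and CER6 and FDH higher. In wrky-qm_15_hz the same 2 were called lower, at -1.30 ± 0.039 and -0.73 ± 0.036, and the other 2 higher. In wrky-qm, FDH and PDF1 were called higher and ATML1 lower.

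The sum over 8 seed storage genes was 9021 to 9404 in wrky-qm, 36525 to 39413 in wrky-qm_15_hz and 96.2 to 116 in obe1-2, against 17.2 to 24.2 in Col-0_1 and 355 to 466 in Col-0_2. Of them, 3 were called higher and 1 lower (SESA4) in obe1-2, 8 higher in wrky-qm_15_hz and 7 higher in wrky-qm. CRA1 and CRC were also called higher in Col-0_2 than in Col-0_1. Defining members were at 0 in some groups: SESA4 in wrky-qm, CRU2 and SESA4 in obe1-2, 5 genes in Col-0_1 and 3 in Col-0_2. SESA4 had the same log2 fold change of -1.50 in obe1-2 and wrky-qm and was called only in obe1-2, so that call concerns a gene near the floor.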

How the data were processed

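The deposited values are a signal for each gene in each library, in the form of normalised reads. Their totals were not equal, from 44049333 to 49934976 per library. Per the submitters' processing notes, bcl2fastq, HISAT2, edgeR and the genome build TAIR10 were used, with versions, settings and strandedness not given in the sources used here. Reads of overlapping or near-identical genes could therefore not be told apart. No source states the unit, and the form above was read from the values, which are not whole. Per the labels, the libraries came from TRIzol-extracted total RNA and were read as 150-bp pairs. A value below 1e-06 was treated as 0.

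After a filter that kept 25085 of 32548 genes (any group mean of 1 or more), values were fitted as log2(value + 1) with limma-trend (limma 3.58.1, R 4.3.3) over all 15 libraries, a scale that understates changes of low genes. For a mutant, the larger of the p-values against the wild-type sets was used, set to 1 for opposite directions, then adjusted over all genes by the Benjamini-Hochberg method. Ratios of paralogues were tested by exact two-sided permutation. Symbols came from the TAIR10.1 annotation, matched by locus. The model was tested on simulated data.

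Genes described with values in every library had the largest called rise or fall of a role in a mutant, the highest wild-type mean of a role, or a call against the direction of their role. From the other pathway lists, up to 3 changed genes of smallest p per list and mutant were eligible. CCA1 was given for its difference between the wild-type sets. All genes and lists were chosen with earlier results of these data known. Alternatives covered the pseudocount, the filter, quantile normalisation, the wild-type set, close copies summed, a replicate block and leaving out each library.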

Additional observations from a re-analysis of the deposited data

How the results depend on the processing

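The counts of called photosynthesis genes in obe1-2 and wrky-qm_15_hz against wild type stayed within 1.5 times of those reported under every alternative run. In wrky-qm, 20 were lower against Col-0_1 alone (9 against both sets), 24 were higher with only Col-0_2 as wild type and 15 with the average of the sets (7 against both). With wrky-qm_15_hz over wrky-qm, 1 was higher under quantile normalisation and 0 with close copies summed (2 reported), and with Col-0_2 over Col-0_1, 2 were higher when every gene above 0 was kept (4 reported). Leaving out each library in turn gave 5 to 8 higher and 7 to 10 lower in wrky-qm, 0 higher and 48 to 51 lower in wrky-qm_15_hz, and 0 higher and 55 lower in obe1-2. It gave 1 to 2 higher and 49 to 51 lower in wrky-qm_15_hz over wrky-qm, 0 to 1 higher and 51 to 53 lower in obe1-2 over wrky-qm_15_hz, and 1 to 3 higher and 25 to 28 lower in Col-0_2 over Col-0_1. The direction of RCA in wrky-qm reversed against Col-0_1 alone (-0.13), as its wrky-qm libraries lay between the wild-type sets. PSBO1 in wrky-qm_15_hz over wrky-qm reversed under quantile normalisation (0.043), and the cause was not tested. The LHCB1.3 difference of 0 there is fixed by its shared top rank. Of the described genes' other fold changes under alternatives, 1764 kept the call or its absence, 44 lost and 32 gained the call. Direction was compared only for genes called in the reported fit or in the alternative. Of the paralogue ratios, 319 moved by at most 1 SD and 32 by more. Quantile normalisation gave 3292 higher and 4480 lower of all genes in wrky-qm, where 3886 and 2857 were reported. The replicate numbers did not pair the samples (correlations of deviations -0.148 to 0.127), and with a replicate block the counts were 7 and 9, 0 and 51, 0 and 55, 2 and 50, 1 and 53, and 3 and 28, higher and lower, in the order of comparisons given for the libraries left out.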
